A study of Mus musculus with 6 samples.

Results

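The genes of synaptic vesicle release were followed across the mouse brain with age. Of the 19465 genes in the probe panel, 55 were taken by symbol alone: the synaptotagmins (17 genes), Snap25 and the syntaxins (16), the Vamp genes (7), synaptophysin (Syp) with the Sv2 genes (4), the complexins (4), the Rab3 genes (4) and the synapsins (3). They were measured in 6 coronal brain sections of untreated male C57BL/6J mice, 2 sections each at postnatal day 21 (P21), in the adult (labelled 12 to 15 weeks) and at 28 months (aged). The assay was 10x Visium on formalin-fixed, paraffin-embedded tissue, where pairs of gene-specific probes are counted as unique molecular identifiers (UMIs) in spots that each cover a small area of tissue. A spot can hold several cells of different types, so each level below belongs to an area and not to a cell type, and fewer cells of a type and less RNA per cell cannot be told apart.

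A synaptic vesicle fuses with the plasma membrane when the vesicle protein synaptobrevin (Vamp1, Vamp2) zips together with a plasma membrane syntaxin such as Stx1a and with Snap25 into a SNARE bundle. Complexins bind that bundle, and the calcium sensors of the synaptotagmin family (Syt1, Syt2, Syt9) trigger its last step. Synapsins tether the reserve vesicles, Rab3 GTPases bring vesicles to the release site, and Sv2 proteins and synaptophysin are abundant proteins of the vesicle membrane. Many of these genes come as paralogs that neurons of different brain regions use in different proportions. Most other Vamp and Stx genes serve membrane traffic in all cells, Vamp3 and Vamp8 in endosomes and secretory organelles and Stx4a at the plasma membrane.

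After removal of 1 to 4 spots of low content per section, 2917 to 3679 spots per section were kept, 20336 in all, and the sections held 42422997 to 106783660 UMIs. Spots were grouped by clustering without the 133 vesicle-release genes listed for this work, and clusters were named from marker panels, which gave 6 zones for comparison: cortex (6584 spots), hypothalamus (3620), thalamus (3310), fiber tracts (2078), hippocampus (1913) and striatum (1139). A reticular thalamic strip led by Six3 and Pvalb (278 spots), a ventricular cluster led by Ttr (334) and a cluster of meninges and vessels (1080) are used for description. Among the leading genes were Prkcd in thalamus, Penk and Adora2a in striatum, and Fibcd1 and C1ql2 in hippocampus. These genes belong to the panels that gave the names, so they are no separate check of them. The weakest match was a cortex cluster of 2042 spots, with a mean standardized panel value of 0.226 and 7 of 12 panel genes raised. The fiber tract zone joined 2 clusters in which all 12 genes of the myelin panel were raised: one of 834 spots led by Thbs4, Opalin and Mag, and one of 1244 spots led by C4b, Klk6, Apod and Serpina3n, with the astrocyte gene Gfap also among its 10 leading genes. The planes of cutting differed: in the hypothalamus the neuropeptide gene Pmch stood between 21.3 and 4706 normalized counts (CPM, UMIs of a gene scaled to 1000000 UMIs of the zone), and the ventricular cluster of adult section 1 lacked the habenular gene Gpr151 (0.876 CPM against 150.1 to 437 in the other sections). Aged sections were processed with a later version of the kit, which has a changed probe design, transferred to the slide by an instrument and read with later software. Any difference of aged from adult sections, also one of a single gene, may belong to the age or to this change of method, which cannot be told apart. The labels call the 2 sections of an age biological replicates and name no animals, and p-values measure the spread between these sections.

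Genes of one zone were also counted in the others, to a degree that differed with age. Prkcd, a thalamic gene, stood in the cortex at 6.73% and 6.34% of its thalamic level at P21, at 2.76% and 2.45% in the adult and at 0.455% and 0.549% in the aged sections. Over the 3974 genes tested with at least a 2-fold difference between their highest and lowest zone, the level in the lowest zone as a percent of that in the highest was below both adult sections in both aged sections for 84.6%, and above both adult sections in both P21 sections for 41.1%. Among the members the same counts were 30 of 32 and 13 of 32. The zones and the 2-fold limit were taken from the mean of all 6 sections, aged ones included. A gene could therefore enter through its aged values, and the aged counts are partly set by this choice. Syp, for example, stood at 57.8% and 55.7% in the adult and at 31.3% and 32.4% in aged sections. The part of the contrast between zones in the age differences of a gene outside its main zone was not tested.

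**Figure D1:**
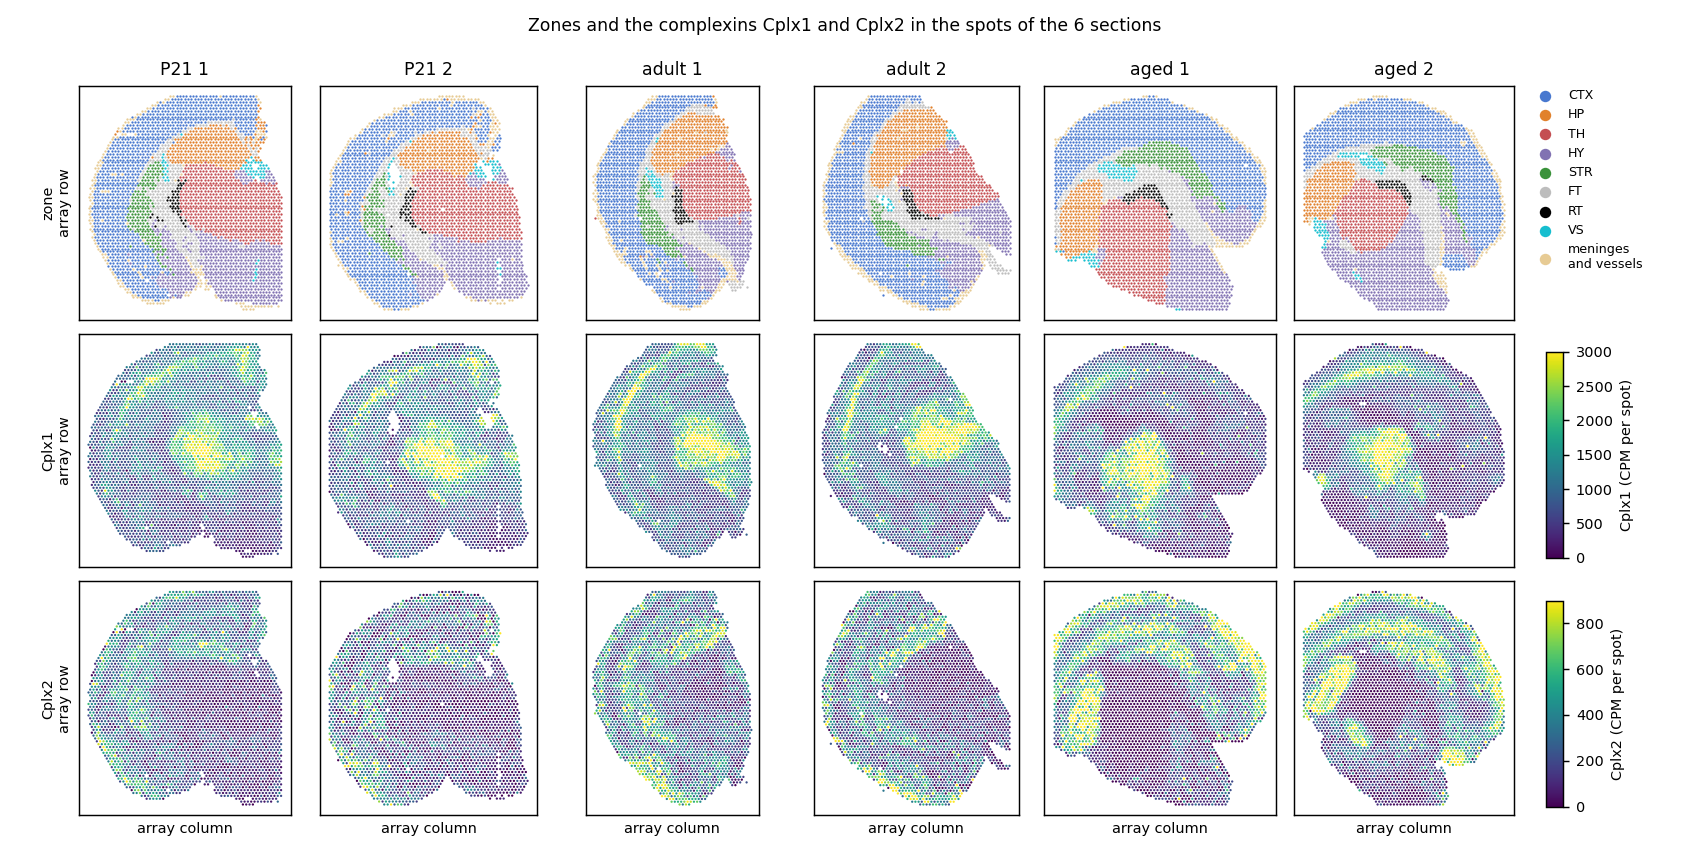
Each dot is a spot in its place on the slide, in 6 sections (columns). The top row colours the zones, the middle and bottom rows the CPM per spot of Cplx1 (colour saturates at 3000) and Cplx2 (saturates at 900); Cplx1 is brightest over the thalamus and Cplx2 is dim there and bright over hippocampus and striatum in all sections.

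The abundant members were found in every zone. Snap25, the plasma membrane SNARE, was counted in whole sections at 2709.7 and 2621 CPM at P21, 3961 and 3707 CPM in the adult and 3180.4 and 3579.9 CPM in aged sections. The adult values lay above the others and the ages did not overlap for this gene. Syp, a major vesicle membrane protein, had 1895 and 1819.8 CPM at P21, 1530.2 and 1612 CPM in the adult and 1574 and 1497 CPM in aged sections, so that P21 stood apart and adult and aged overlapped. Vamp2, the main synaptobrevin of the forebrain, ran from 687 to 953 CPM and Syt11, a synaptotagmin that does not bind calcium, from 576 to 863 CPM. Rab3a, the vesicle GTPase, stood at 288 to 381 CPM and Syn1, which tethers vesicles, at 316 to 371 CPM. At the other end, 7 members were counted too rarely for a test in any zone: Syt8, Stx19, Cplx4, Vamp9, Stx11, Syt15 and Rab3d. Syt8 had at most 0.293 CPM, where a count of 3 UMIs per section is worth 0.0281 to 0.0707 CPM.

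For 22 of the 55 members the same zone of the 6 was highest in all 6 sections, and for 25 the same zone was lowest in all 6. Shares of all genes are not given here, so these are counts only. Members too rare for a test are included. Stx19, for example, was lowest in hippocampus in all 6 sections, at a mean of 0.0477 CPM. Cortex was highest in all 6 sections for 7 members (Rab3b, Snap25, Stx1a, Syn1, Syt1, Syt16 and Vamp2), thalamus for Cplx1, Rab3c, Syt9 and Vamp1, hypothalamus for Stx16, Stx18, Syt2 and Syt4, striatum for Sv2c, Syt5 and Syt6, and fiber tracts for Stx2, Stx4a, Vamp3 and Vamp8. Fiber tracts and thalamus were each lowest in all 6 sections for 11 members. Zones were made from the same spots, so these levels are a description without a test, and they rest on the mean ± SD over 6 sections (n = 6) of all ages.

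**Figure D2:**
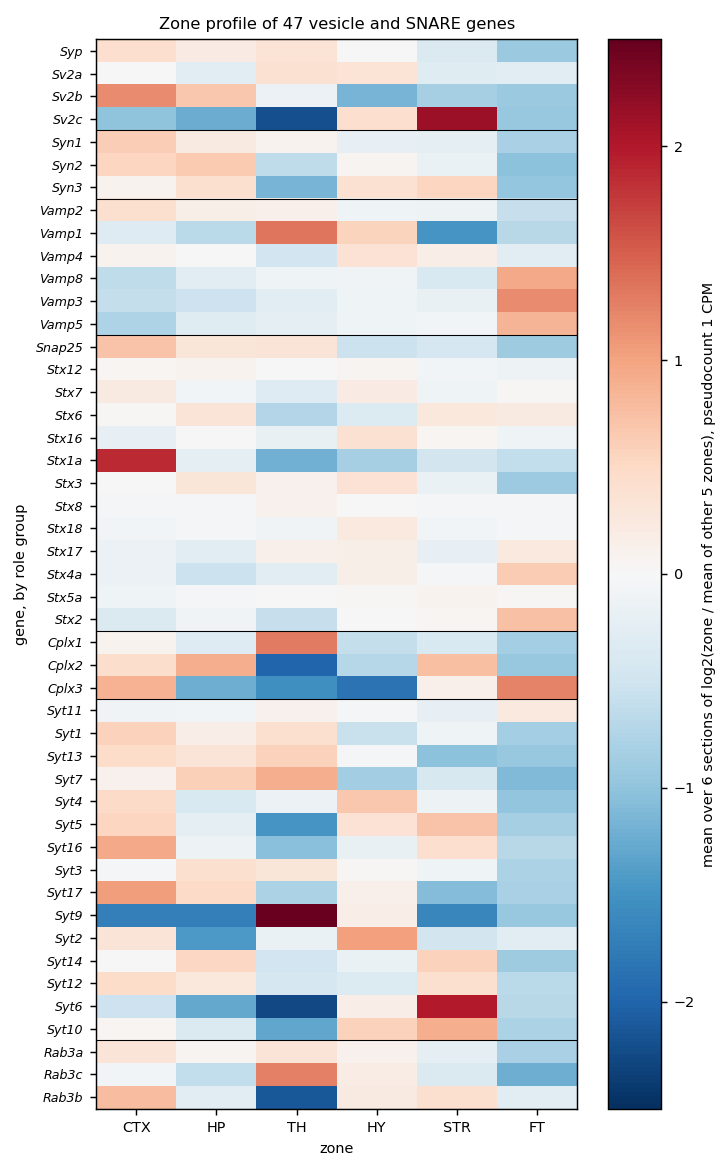
Heatmap of 47 members (rows, by role) in 6 zones (columns); colour is the log2 ratio of the CPM in a zone over the mean of the other 5 zones, with a pseudocount of 1 CPM, averaged over 6 sections. Stx1a stands out in cortex (1.86), Syt9 in thalamus (2.47) and Sv2c in striatum (2.14).

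Among vesicle membrane proteins, the 3 Sv2 genes divided the brain. Sv2a, the broadly used one, had 593 ± 31.6 CPM in thalamus and 400.3 ± 34.4 CPM in striatum, its highest and lowest zones, with hippocampus and fiber tracts (406 ± 21.1 and 406 ± 39.7 CPM) within the spread of striatum. Sv2b stood at 348 ± 32.5 CPM in cortex and 592 ± 44.0 CPM in hippocampal field CA3, against 66.3 ± 27.4 CPM in the dentate gyrus. Sv2c, known for its place in the basal ganglia, had 103 ± 55.6 CPM in striatum, 42.4 ± 11.5 CPM in hypothalamus and 7.76 ± 2.46 CPM in thalamus. Sv2b and Sv2c thus peaked in different zones, and the large SD of Sv2c in striatum came with an age difference described below. Synapsins were likewise split within the hippocampus: Syn2 reached 511 ± 75.1 CPM in CA3 and 215 ± 17.3 CPM in the dentate gyrus, while Syn3 had 19.0 ± 5.95 CPM in CA3 and 138 ± 18.1 CPM in the dentate gyrus.

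Syn1 is shown with its promoter because it is the classic neuron-restricted gene of the set. Of the 55 members, 43 matched a RefSeq promoter of mouse build GRCm38.p6 (250 bases before to 50 after the gene start). The left part of the RE1 element bound by the neuronal repressor REST (TTCAGCACC, either strand) was found in the window of 1 member, Syn1, and in 0.433% of 27025 genes, and the cAMP response element TGACGTCA again in Syn1 alone among members and in 2.03% of genes. A GC box (GGGCGG or CCGCCC) was in 35 of 43 members (81.4%) and in 38.2% of genes. A TATAAA on either strand was in 4 members, Rab3b, Stx2, Stx3 and Sv2b, and in 15.7% of genes. The 27025 genes are more than the 19465 of the panel, so they were not limited to genes of the panel or of the brain. These motifs do not overlap each other, and a match is a description of letters only. The 250 bases upstream of Syn1 (chrX:20920919-20921168, minus strand), 5′ to 3′ with both motifs in capitals, read
Syn1: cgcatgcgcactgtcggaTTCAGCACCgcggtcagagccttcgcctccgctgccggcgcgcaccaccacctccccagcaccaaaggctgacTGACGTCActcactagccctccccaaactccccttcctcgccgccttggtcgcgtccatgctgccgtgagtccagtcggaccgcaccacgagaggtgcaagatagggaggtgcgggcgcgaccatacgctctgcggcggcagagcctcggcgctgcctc

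Complexin paralogs divided the zones between them. Cplx1 had 2067 ± 222 CPM in thalamus and 2295 ± 265 CPM in the reticular strip, against 1109.7 ± 168 CPM in cortex. Cplx2 went the other way, with 497 ± 137 CPM in hippocampus, 450.2 ± 81.9 CPM in striatum, 383 ± 86.8 CPM in cortex and 94.4 ± 44.3 CPM in thalamus. The log2 ratio of Cplx1 to Cplx2 was 4.62 ± 0.90 in thalamus, 1.55 ± 0.50 in cortex, 0.85 ± 0.69 in hippocampus and -0.10 ± 0.79 in the dentate gyrus. The size of this ratio depends on the probes of each gene and only its difference between zones is read here. Its SDs also hold differences between ages. In the dentate gyrus it was 0.73 and 0.79 at P21, -0.07 and -0.09 in the adult and -0.76 and -1.18 in aged sections. Both aged sections were also below both adult ones in hippocampus and in cortex (0.77 and 1.08 against 1.84 and 1.81). In thalamus aged and adult sections overlapped. In all 6 sections the thalamic ratio (3.74 to 6.21) was above the cortical one (0.77 to 1.95). Cplx3, a complexin anchored to membranes by a lipid tail, stood at 97.9 ± 21.7 CPM in the reticular strip and 90.3 ± 17.7 CPM in deep cortical layers, but at 15.9 ± 2.87 CPM in upper layers. Its level in fiber tracts (40.0 ± 10.6 CPM) exceeded that in 5 other zones. With every zone limited to spots whose neighbours share their zone, the log2 ratio of fiber tracts over the others fell from 1.25 to 0.25. The part of bordering spots in this level was not tested. The promoters of Cplx1 (chr5:108550028-108550277, minus strand) and Cplx2 (chr13:54302306-54302555, plus strand) are set side by side for this division, 250 bases upstream of each start with the GC box in capitals. Cplx1 has 1 and Cplx2 none, and the GC content of these stretches is 64.8% and 50.8%.
Cplx1: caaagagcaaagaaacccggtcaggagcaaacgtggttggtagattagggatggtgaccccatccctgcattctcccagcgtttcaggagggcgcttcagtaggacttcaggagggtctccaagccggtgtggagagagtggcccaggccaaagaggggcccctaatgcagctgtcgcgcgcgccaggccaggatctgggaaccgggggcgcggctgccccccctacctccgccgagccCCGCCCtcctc
Cplx2: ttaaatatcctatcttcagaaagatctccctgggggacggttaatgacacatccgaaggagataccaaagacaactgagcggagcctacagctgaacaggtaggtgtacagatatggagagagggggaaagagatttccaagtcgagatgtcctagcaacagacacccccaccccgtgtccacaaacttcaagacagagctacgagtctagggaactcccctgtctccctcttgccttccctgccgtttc

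Levels of the SNAREs also differed between gray matter zones. Stx1a, one of the syntaxins of transmitter release, had 195 ± 26.6 CPM in cortex (237 ± 25.1 in upper layers, 174 ± 21.2 in deep layers) and between 39.1 ± 15.5 and 67.3 ± 7.21 CPM in the 5 other zones. Vamp1, the synaptobrevin of fast subcortical synapses, had 208 ± 71.2 CPM in thalamus, 347 ± 180.0 CPM in the reticular strip and 40.2 ± 11.05 CPM in striatum. Snap25 reached 5948 ± 835 CPM in CA3 and 1751 ± 606 CPM in fiber tracts. Members of general traffic stood elsewhere: Vamp8 had 155 ± 72.4 CPM in the ventricular cluster and 43.1 ± 18.4 CPM in fiber tracts, and Vamp5 27.4 ± 7.67 CPM in meninges and vessels against 3.53 ± 0.62 CPM in cortex.

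Of the calcium sensors, Syt1 led in cortex (433 ± 180.3 CPM), Syt2, the fast sensor of hindbrain and parvalbumin neurons, in the reticular strip (263 ± 115 CPM) and, of the 6 zones, in hypothalamus (77.5 ± 30.7 CPM), and Syt9 in thalamus (139 ± 23.6 CPM). Syt9 was higher still in the ventricular cluster, at 505 and 583 CPM at P21, 24.5 and 346 CPM in the adult and 217 and 555 CPM in aged sections. The low section there was adult 1, the one whose cluster lacked Gpr151. Syt6, a synaptotagmin that does not act as a fast sensor, had 56.9 ± 15.6 CPM in striatum and 5.25 ± 3.73 CPM in thalamus. In the dentate gyrus Syt7, a high-affinity calcium sensor, had 581 ± 73.6 CPM and Syt17 171 ± 44.7 CPM, against 363 ± 53.2 and 14.4 ± 7.04 CPM in CA3. Rab3c stood at 430.1 ± 62.2 CPM in thalamus and Rab3b at 44.4 ± 31.0 CPM there, against 211 ± 13.3 and 196 ± 12.6 CPM in cortex.

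The first comparison asked how the machinery at P21 differed from the adult brain. Over the 6 zones, 13 members were called in at least 1 zone, with 14 rises and 6 falls in 286 tests, where a call needs an adjusted p under 0.05 (edgeR quasi-likelihood test, Benjamini-Hochberg over all genes tested) and a fold change over 1.5. The share of all genes called in at least 1 zone is not given here, so the 13 is a count only and shares are compared zone by zone. Thalamus held 10 of the 20 calls: 7 members were higher and 3 lower at P21 of 48 tested, where 4.33% of all genes were higher and 2.76% lower (7.09% called in all). In hippocampus 3 of 48 were higher (6.73% of all genes), in hypothalamus 2 were higher and 1 lower of 48 (3.95%), and in fiber tracts 2 were higher and 2 lower of 48 (9.25%). In cortex and striatum edgeR called 0 of 47 (4.76% and 4.03% of all genes), DESeq2 also called 0, and 14 members in each had an unadjusted p under 0.05. Whole sections gave 3 members higher and 1 lower (5.17% of all genes). The share of members called was 20.8% in thalamus and at most 8.33% elsewhere. Shares of all genes for P21 are given for the main fit only, so counts under other settings are not read against all genes. The small counts moved with the settings: hypothalamus had 0 called members with core spots (those whose neighbours share their zone), without adult section 1 or without either P21 section, and 5 without adult section 2, fiber tracts had 1 with core spots, and cortex had 3 without adult section 2.

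In the P21 thalamus the 7 higher members were Syn2, Rab3b, Stx1a, Syt17, Syt6, Stx2 and Syt10, all genes that are low there: in all 6 sections each had less in thalamus than the mean of the other zones, by a mean log2 ratio of -0.58 (Stx2) to -2.25 (Syt6). Syn2, a vesicle-tethering synapsin, had 204 and 210.4 CPM at P21 against 102 and 128 CPM in the adult, a log2 fold change of 0.87 ± 0.16 (SE, adjusted p = 0.00481). Rab3b had 83.3 and 74.2 CPM against 45.2 and 44.1 CPM (0.85 ± 0.17, adjusted p = 0.0062). Stx1a had 59.6 and 54.5 CPM against 39.7 and 34.6 CPM (0.65 ± 0.10, adjusted p = 0.00183). The P21 and adult sections did not overlap for any of these 3 genes. The other 4 were higher by 0.65 to 0.88 on the log2 scale. For Stx1a the contrast between zones was weaker at P21, as for Prkcd above. Its thalamic level was 31.1% and 30.6% of the cortical one at P21 against 23.2% and 19.95% in the adult. A weaker contrast at P21 was seen for 13 of 32 members and 41.1% of genes, and some members went the other way. Stx3 in fiber tracts stood at 42.3% and 41.6% of its hypothalamic level at P21 against 75.5% and 66.4% in the adult. The part of the contrast between zones in the thalamic rises was not tested. Vamp1, the fast synaptobrevin, was lower at P21, with 138 and 116 CPM against 212 and 217 CPM (-0.73 ± 0.10, adjusted p = 6.38e-04), as was Syt2, with 24.0 and 20.7 CPM against 39.7 and 41.2 CPM (-0.82 ± 0.13, adjusted p = 0.00175). Both are the paralogs of fast-firing neurons in their families. The thalamic count depended on single sections: without P21 section 1 or adult section 1 it was 5, and without P21 section 2 or adult section 2 it was 6.

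The largest difference of a member at P21 was Syt9 in the hippocampus. It had 52.1 and 39.2 CPM at P21 and 6.82 and 11.6 CPM in the adult, a log2 fold change of 2.30 ± 0.22 (adjusted p = 2.88e-05). Syt6 had 21.1 and 19.4 CPM against 7.30 and 5.85 CPM there (1.62 ± 0.19, adjusted p = 1.80e-04). Both are genes of other zones, and genes of the habenula, which borders the hippocampal zone in these planes, moved with them: Gpr151 had 29.7 and 22.9 CPM in the P21 hippocampal zone against 1.95 and 6.00 CPM in the adult, and Tac2 80.3 and 60.5 CPM against 7.14 and 16.7 CPM. Prkcd stood there at 13.3% and 12.4% of its thalamic level at P21 and at 5.13% and 5.53% in the adult. With the unnamed hippocampal subcluster, in which Gpr151 was a leading gene, left out, the changes were 2.14 for Syt9 and 1.52 for Syt6 and both remained called. The part of habenular tissue in the other spots was not tested.

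A few members moved together in several zones. Stx2, a syntaxin of general secretion, was higher at P21 in hippocampus, thalamus, hypothalamus and fiber tracts, with 59.8 and 68.7 CPM against 36.8 and 32.7 CPM in fiber tracts (0.95 ± 0.12, adjusted p = 3.12e-05). Vamp5, a Vamp first known from muscle, was lower in thalamus, hypothalamus and fiber tracts, with 4.01 and 3.20 CPM against 10.9 and 11.8 CPM in fiber tracts (-1.52 ± 0.25, adjusted p = 3.62e-04). Vamp8 was called lower in fiber tracts, with 23.7 and 23.6 CPM against 39.6 and 42.8 CPM (-0.73 ± 0.12, adjusted p = 3.66e-04), and Vamp3 was higher there (0.66 ± 0.16). Beside these fiber tract values, the summed oligodendrocyte markers stood at 85578 and 98852 CPM at P21 and 44978 and 43372 CPM in the adult, and the microglial sum at 602 and 645 CPM against 762 and 860.2 CPM. Their part in the 4 calls was not tested. Snap25 was under the adult level at P21 in all 6 zones by less than the fold limit, most in cortex, where 3565 and 3307 CPM stood against 5216 and 4856 CPM (-0.55 ± 0.08, adjusted p = 7.31e-04), and its change was not shown to differ between zones (zone-by-age adjusted p = 0.838).

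**Figure D3:**
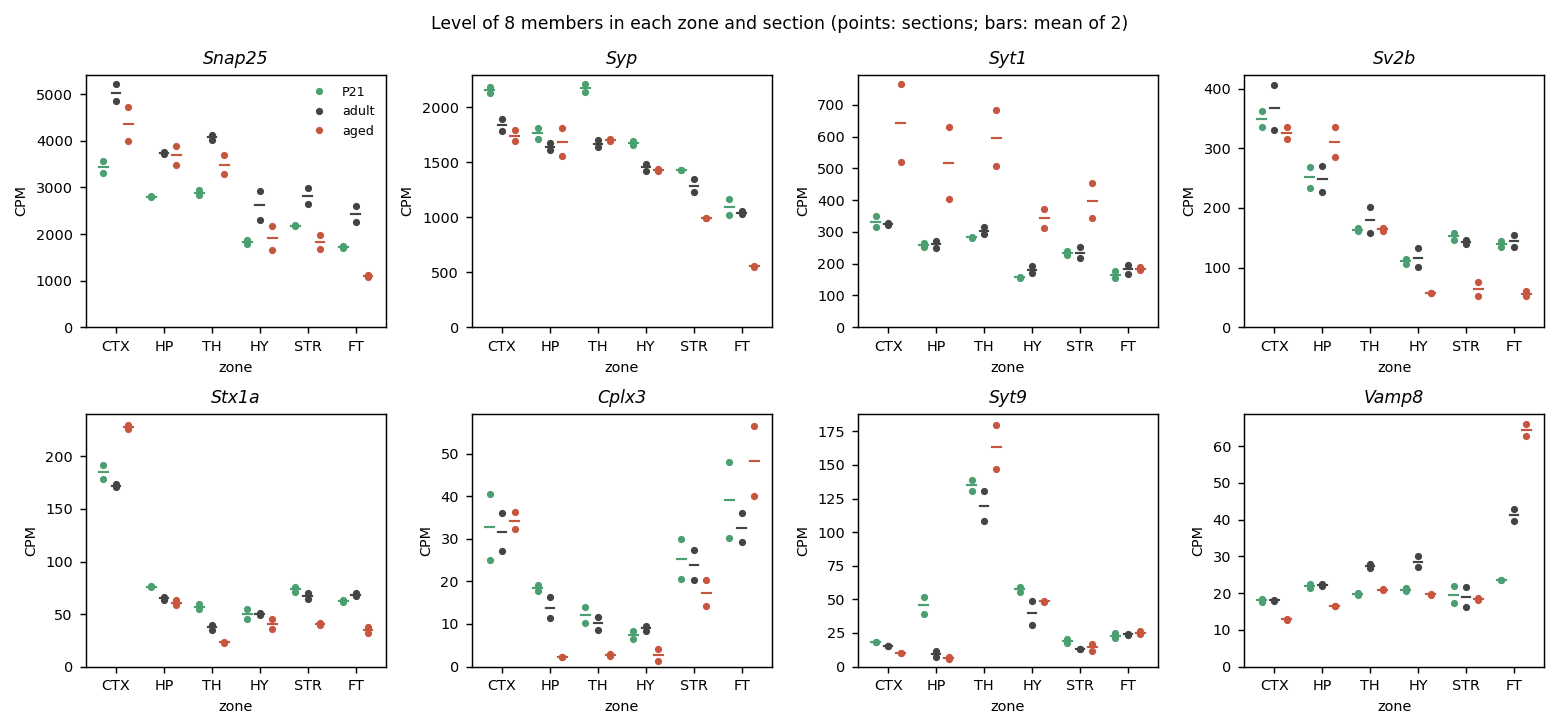
CPM of 8 members (panels) in 6 zones (x axis); each point is 1 section and colours mark the 3 ages. Syt1 is highest in aged sections in every gray matter zone, Snap25 is lowest in aged fiber tracts (1111 and 1083 CPM), and Vamp8 is highest in aged fiber tracts (66.2 and 62.8 CPM).

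The second comparison asked what differed at 28 months. Over the 6 zones, 34 members were called in at least 1 zone, with 20 rises and 40 falls in 287 tests, and Cplx3 was called in both directions. The share of all genes called in at least 1 zone is again not given, so the 34 is a count only. The fiber tracts dominated: 20 of 48 members were lower and 6 higher there, where 14.6% of all genes were lower and 12.8% higher (27.4% called in all). The median log2 fold change of the members in fiber tracts was -0.49, against -0.04 over all genes tested. With the clusters of this zone fitted alone, 26 members were called in the cluster led by C4b and 7 in the one led by Thbs4, as described below. In striatum 5 members were higher and 8 lower of 48 (14.1% of all genes called), in hypothalamus 4 and 6 of 48 (11.8%), in thalamus 1 and 4 of 47 (13.8%), in hippocampus 2 and 1 of 48 (11.9%), in cortex 2 and 1 of 48 (10.1%), and in whole sections 2 and 1 (9.09%). In cortex, hippocampus and thalamus the shares were thus not above those of all genes. These counts are small and changed when a section was left out, so a share below that of all genes is not read from them. Both comparisons use the same 2 adult sections.

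The lower members of the aged fiber tracts included Snap25 and several vesicle proteins. Snap25 had 1111 and 1083 CPM against 2598 and 2264 CPM in the adult, a log2 fold change of -1.13 ± 0.09 (adjusted p = 6.87e-08). Syp had 559 and 547 CPM against 1029 and 1054 CPM (-0.89 ± 0.09, adjusted p = 4.39e-07). No aged section overlapped an adult one in either gene.
Syt4, a synaptotagmin of dense-core vesicles, fell by 1.25, Sv2b by 1.34, Syn1 by 0.73, Syn2 by 0.74 and Cplx1 by 0.81 on the log2 scale. Further lower members included Stx1a, Stx3, Stx6, Rab3b and the synaptotagmins Syt3, Syt5, Syt7, Syt10, Syt12, Syt13, Syt16 and Syt17. Vamp2, with 443 and 517 CPM against 643 and 624 CPM, stayed under the fold limit (-0.38 ± 0.10, adjusted p = 0.0041). The 6 higher members were Vamp5 (1.07 ± 0.18), Stx4a (0.83 ± 0.12), Vamp8 (0.66 ± 0.11), Vamp3 (0.64 ± 0.16), Syt2 (0.61 ± 0.14) and Cplx3 (0.59 ± 0.19). Vamp8 had 66.2 and 62.8 CPM against 39.6 and 42.8 CPM, and Stx4a 91.3 and 74.7 CPM against 50.3 and 44.4 CPM.

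Markers of cell types moved in the aged fiber tracts as well. The sum of 12 pan-neuronal genes stood at 2888 and 3086 CPM against 5138 and 5209 CPM in the adult, with 7 of 12 called lower and a median log2 fold change of -0.66. The sum of 9 microglial genes stood at 2609 and 2657 CPM against 762 and 860.2 CPM, with 8 of 9 higher, and the astrocyte sum at 7370.4 and 7498 CPM against 4343 and 4303 CPM. Over whole sections the pan-neuronal sum was 7210.2 and 7336 CPM in the aged and 7475 and 7711 CPM in the adult. How much of the members' fall was neuronal tissue at the edge of the tracts was not tested. With only spots whose neighbours were all fiber tract, 28 members were called. The share of all genes called under those spots is not given here, so nothing about the edge is read from this count. Under those spots Cplx3 turned from 0.59 to -0.31 (adjusted p = 0.471) and Syt1 from 0.04 to -0.62 (adjusted p = 2.57e-04).

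The 2 clusters of the fiber tract zone did not hold the same share of it at each age, and the members differed between them. The cluster led by C4b and Klk6 held 78.9% and 82.7% of the zone's spots in aged sections, 41.1% and 50.0% in the adult and 52.3% and 45.8% at P21. Snap25 was lower in this cluster at every age, with 1831 and 1697 CPM against 3054 and 2802 CPM in the cluster led by Thbs4 and Opalin in the adult sections. Each cluster was therefore also fitted alone, a choice made after seeing the data. Within the cluster led by C4b, 22 of 48 members were lower and 4 higher in aged sections, where 14.8% of all genes were lower and 13.6% higher, and the members' median was -0.50. Within the cluster led by Thbs4, 4 were lower (Cplx1, Stx6, Syt4 and Syt17) and 3 higher (Cplx3, Rab3a and Stx4a), where 8.41% and 9.94% of all genes were, and the median was -0.07. Snap25 had 720 and 798 CPM in the first cluster of aged sections (-1.14 ± 0.11, adjusted p = 1.20e-08) and 2144 and 1902 CPM in the other (-0.53 ± 0.08, adjusted p = 6.59e-07), under the fold limit. Sv2b fell by 2.24 in the first and stood at -0.19 ± 0.12 in the other (adjusted p = 0.235), and Stx1a fell by 1.34 against -0.03 ± 0.14 (adjusted p = 0.893). Clusters were made from the same spots, and whether the clusters' changes differ was not tested.

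**Figure D4:**
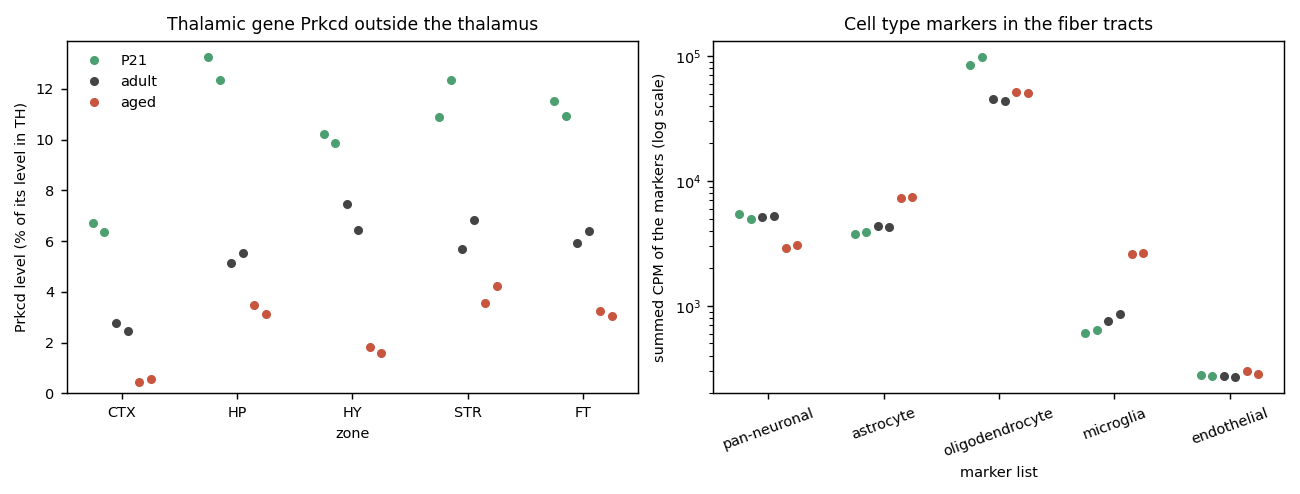
Left, the thalamic gene Prkcd in other zones as a percent of its thalamic level, by zone (x axis); right, summed CPM of cell type marker lists (x axis) in the fiber tracts, on a log axis. Each point is 1 section and colours mark the 3 ages. Prkcd outside thalamus is highest in P21 and lowest in aged sections, and in aged fiber tracts the pan-neuronal sum is lower (2888 and 3086 CPM) and the microglial sum higher (2609 and 2657 CPM) than in the adult.

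In the gray matter the aged difference shared by most zones was Syt1, the main fast calcium sensor of the forebrain. It rose in all 5 gray matter zones, with 765 and 519 CPM in aged cortex against 327 and 322 CPM (0.98 ± 0.14, adjusted p = 1.95e-04) and 683 and 508 CPM in aged thalamus against 315 and 293 CPM (1.01 ± 0.12, adjusted p = 1.55e-04). Aged section 1 was above aged section 2 in each of these zones, and both were above the adult sections. P21 sections, which were processed like the adult ones, had 349 and 316 CPM of Syt1 in cortex, so that for this gene too age and the change of probes cannot be told apart. Sv2c rose in striatum, its main zone, from 75.1 and 75.4 to 184 and 162 CPM (1.201 ± 0.11, adjusted p = 2.93e-07), and in cortex (0.83 ± 0.11) and hypothalamus (0.75 ± 0.13). Syt6 rose in hypothalamus (0.96 ± 0.21) and striatum (0.73 ± 0.12), Syt14 in the same zones (0.65 ± 0.13 and 0.76 ± 0.13), and Cplx2 in hippocampus, where 643 and 689 CPM stood against 459 and 445 CPM (0.60 ± 0.09, adjusted p = 4.24e-04). The make-up of the hippocampal zone also differed between these ages, as given below with Sv2b. The planes of the hypothalamus differed too, as given below with Cplx1.

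Several falls in aged gray matter were of members outside their main zone. Rab3b in thalamus had 12.7 and 7.10 CPM against 45.2 and 44.1 CPM (-2.13 ± 0.20, adjusted p = 2.72e-05), while in cortex, its highest zone, 179 and 199 CPM stood against 183 and 199 CPM (-0.03 ± 0.08). Its thalamic level was 40.0% and 35.5% of the cortical one at P21, 24.7% and 22.1% in the adult and 7.09% and 3.57% in aged sections. Cplx3 in hippocampus had 2.26 and 2.29 CPM against 16.2 and 11.4 CPM (-2.55 ± 0.25, adjusted p = 2.86e-05), and it was lower in thalamus (-1.84 ± 0.24) and hypothalamus (-1.64 ± 0.37). Syt17 and Sv2b fell in striatum by 1.92 and 1.15 on the log2 scale, and Sv2b fell in hypothalamus by 1.07. Syt17 and Sv2b are genes of cortex and hippocampus. The sharper contrast between zones in aged sections, given above with Prkcd, stands beside each of these falls of Rab3b, Cplx3, Syt17 and Sv2b. Abundant members also fell outside their highest zone, which is cortex for Snap25 and thalamus for Cplx1. The same contrast between zones stands beside these falls, and both genes were lower in fiber tracts too. Snap25 in striatum had 1679 and 1980 CPM against 2995 and 2646 CPM (-0.63 ± 0.09, adjusted p = 5.55e-05), and Cplx1 in hypothalamus 452 and 593 CPM against 1255 and 806 CPM (-1.01 ± 0.19, adjusted p = 0.00531). The hypothalamic planes differed within both ages, with Pmch at 178 and 2584 CPM in adult and 4706 and 21.3 CPM in aged sections. The zone held 376 and 442 spots in adult and 620 and 849 in aged sections. Their part in the hypothalamic differences was not tested. Stx6, a syntaxin of the trans-Golgi network, fell in thalamus (-0.99 ± 0.09), hypothalamus (-0.78 ± 0.10) and fiber tracts (-0.64 ± 0.09), and over whole sections 139 and 146 CPM stood against 217 and 202 CPM (-0.66 ± 0.06, adjusted p = 1.41e-05). It is widely expressed, and both aged sections were below both P21 sections (170 and 174 CPM).

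Stx1a differed between cortex and the other zones. In aged cortex 230.2 and 226 CPM stood against 171 and 173 CPM (0.39 ± 0.08, adjusted p = 0.00117), which is under the fold limit, while it fell in thalamus (-0.65 ± 0.11), striatum (-0.73 ± 0.12) and fiber tracts (-0.95 ± 0.11). In hippocampus it had 63.2 and 58.7 CPM in aged sections and 66.5 and 63.4 CPM in the adult (-0.05 ± 0.10, adjusted p = 0.732). Sv2b in hippocampus had 336 and 285 CPM against 227 and 270.0 CPM (0.36 ± 0.12, adjusted p = 0.0371), again under the fold limit. The make-up of the hippocampal zone differed between these ages. CA3 held 69 and 40 of its spots in aged sections against 28 and 37 in the adult. Matrix spots, named from glial markers, numbered 119 and 97 against 187 and 233. The part of this make-up in the aged hippocampal differences of Sv2b and other members was not tested. Leaving out a section changed the smaller counts: the aged cortex had 8 called members without adult section 1 and 5 without aged section 2, the aged hippocampus 8 without aged section 1 and 5 without aged section 2, the aged thalamus 10 without aged section 2, and aged whole sections 5 without adult section 1 or aged section 1. With core spots the aged hypothalamus had 5 called members. Shares of all genes under these settings are not given here, so these counts are not read against all genes.

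**Figure D5:**
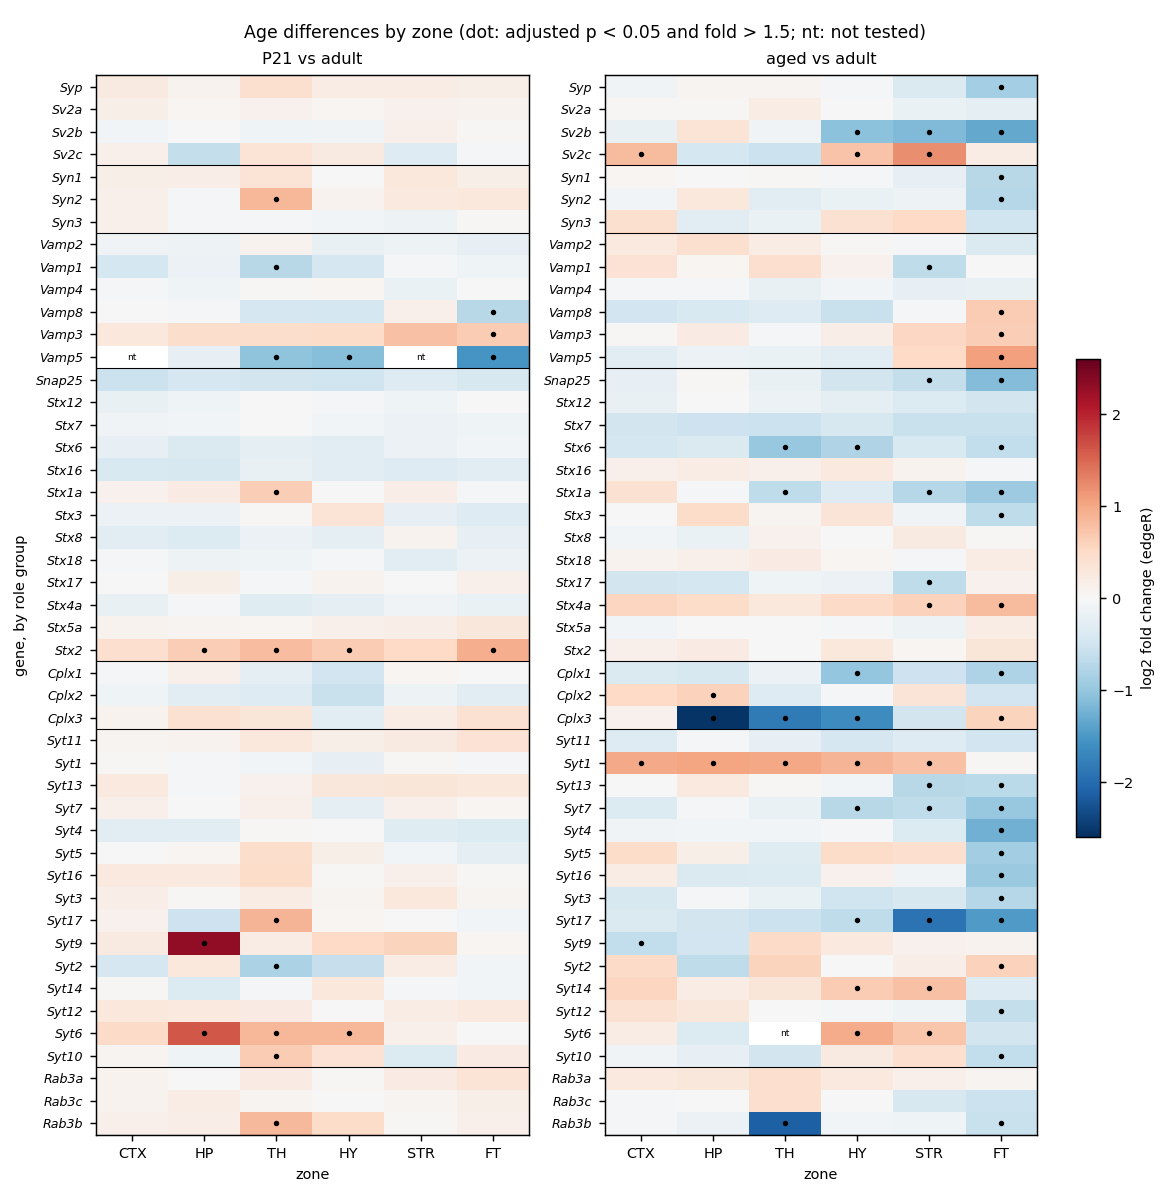
Heatmaps of the log2 fold change of 47 members (rows) in 6 zones (columns), left for P21 and right for aged, each against adult; dots mark called members and nt those not tested. The aged fiber tract column holds the most dots, with lower members such as Snap25 (-1.13) and higher ones such as Vamp5 (1.07).

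Whether an age difference varied between zones was tested directly, with each section as its own block, which absorbs whatever acts alike over a whole section. The block does not absorb a difference in the contrast between zones or in the make-up of a zone. Both were seen in aged sections, as given above, and their part in the counts below was not tested. At P21, 10 of 48 members differed between zones (20.8%), against 12% of all genes. In aged sections 36 of 48 differed (75.0%), against 49.8% of all genes. For 27 of the 48 the fiber tracts had the lowest change and for 9 the highest. Without the fiber tracts the aged count was 25 and the P21 count 6. Shares of all genes for the place of the lowest change and for the fit without fiber tracts are not given here. These counts are therefore not read against all genes. The smallest adjusted p-values in aged sections were those of Syp (4.98e-09), Sv2b (9.78e-09), Syt13 (1.74e-08) and Stx1a (2.39e-08). Syp shows the pattern: its log2 fold change was -0.89 in fiber tracts, -0.09 in cortex and 0.08 in hippocampus. Syt13, which lacks calcium binding, went from -0.71 in striatum to 0.26 in hippocampus. At P21 the members with the smallest adjusted p were Syt9 (1.38e-05), Syn2 (0.00109), Vamp8 (0.00118) and Syt6 (0.00239), and Syn2 ran from a rise of 0.87 in thalamus to -0.03 in hippocampus. This P21 count was 1 without adult section 2, 2 without P21 section 1, 3 without P21 section 2 or adult section 1, and 21 without either aged section.

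The genes of proteins that work around the SNAREs were taken as 4 lists, and their counts in aged fiber tracts stand beside 14.6% lower, 12.8% higher and a median of -0.04 over all genes there. Of 29 genes of vesicle docking and priming, 16 were lower, among them the active zone scaffolds Bsn and Pclo and the priming factors Unc13a and Rims1, and 3 were higher, Rab3ip, Stxbp3 and Unc13c. The list's median log2 fold change was -0.64. Of 18 tested genes of SNARE disassembly and related SNAREs, 5 were lower, including the ATPase Nsf and its adaptor Napb (median -0.27). Of 17 endocytosis genes 5 were lower, including dynamin 1 (Dnm1) and amphiphysin (Amph), and Picalm was higher (median -0.33), and of 11 genes of vesicle cargo 6 were lower, including the glutamate transporters Slc17a6 and Slc17a7 (median -0.66). In aged cortex 1 of the 29 docking genes was lower (Unc13c) with a median of 0.04, and 1 of the 17 endocytosis genes was higher (Snap91, a clathrin adaptor), where 10.1% of all genes were called. In aged striatum 7 docking genes were lower and 1 higher (median -0.12), where 14.1% of all genes were called. In aged thalamus 5 were lower and 2 higher (median -0.21), where 13.8% were called. Each of these 2 zones also had 3 of the 11 cargo genes lower. In aged hippocampus 3 docking genes were higher and 3 lower (median 0.03), where 11.9% of all genes were called. Of the 17 endocytosis genes 3 were higher there, Ap2b1, Snap91 and Synj1 (median 0.17). In aged hypothalamus 1 docking gene was higher and 2 lower (median -0.10), and 1 endocytosis gene was higher (median -0.14), where 11.8% were called. At P21 these lists gave at most 2 calls each in a zone, where 3.95% to 9.25% of all genes were called. Among them were Rims4, higher in cortex, hippocampus and striatum, and Sh3gl1, higher in cortex, thalamus, striatum and fiber tracts.

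The deposited Moran's I, a score of how far a gene's level is shared by neighbouring spots (0 for none), was listed for 54 members. It ran for Snap25 from 0.572 to 0.773 over the 6 sections. It was higher in both aged sections than in both adult sections for 44 of 54 members, where 68.3% of 16215 genes were, and higher than in all other 4 sections for 41 members, where 55% of genes were. The median over members was 0.139 and 0.102 at P21, 0.128 and 0.110 in the adult and 0.197 and 0.280 in aged sections. Over all genes it was 0.0206 and 0.0127 at P21, 0.0158 and 0.0141 in the adult and 0.0325 and 0.0425 in aged sections. It was thus higher in aged than in adult sections for all genes as well, and these genes were not matched to the members in level. The median UMIs per spot also differed, with 23543.5 and 12074.5 at P21, 16740 and 14603 in the adult and 19580 and 25535 in aged sections. The part of level and depth in these scores was not tested.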

How the data were processed

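All 6 sections were used. The authors fixed brain blocks in formalin, cut paraffin sections of male mice onto Visium v1 slides (P21, adult) or transferred probes of a changed design with CytAssist to v2 slides (aged), and made the deposited UMI counts per spot and gene with Space Ranger (2.0.0 for P21 and adult and 3.1.1 for aged per the file headers; 2.1.0 in the submitters' processing notes, with Seurat 5.1.0) on mm10. A deposited score, Moran's I per gene, was also read. Members and lists were chosen with earlier results of these data known.

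Spots with at least 500 UMIs and 250 genes were kept. Zones came from Leiden clustering (leidenalg 0.10.2, resolution 0.5) of 3000 variable genes and 10 principal components, named from marker panels. UMIs were summed per section and zone, spots not being replicates, and tested with edgeR 4.0.16 (TMM factors, quasi-likelihood, all 6 sections in 1 fit); tested genes passed filterByExpr and were in over 10% of the zone's spots at either age and at least 10% of all spots. SE is the fold change over the root of F. Levels are plain CPM. The sections' UMI totals set the counting precision. Slide barcodes are shared by P21 and adult sections (2607 to 2992 per pair) as the layout of one slide type, and are not shared cells. No doublet caller was run, since a spot is an area. Named with values were the most abundant member of each role, the members with the largest changes of one sign in all zones, the smallest zone-by-age p-values, the member with the highest ratio for each zone, Stx1a and Sv2b, and others chosen after their values were seen. The test was run on simulated data first. Alternatives were DESeq2 1.42.0, plain library sizes, filterByExpr alone, core spots (all neighbours in the zone), finer clustering, thinning to equal depth, a replicate block and leaving out each section; 3 more, leaving out unnamed hippocampal subclusters, leaving out the fiber tracts and fitting each fiber tract cluster alone, were added after seeing the data. The study's test over spots was not used. Some genes are part of the counts but are not reported singly here.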

Additional observations from a re-analysis of the deposited data

Results flagged for a closer look

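The results below had zone-by-age differences by edgeR's quasi-likelihood test, Benjamini-Hochberg adjusted over 11338 genes: the change against adult differed between zones. For P21 these were Syt9 (adjusted p = 1.38e-05; highest change in hippocampus, 2.30), Syn2 (0.00109; highest in thalamus, 0.87), Vamp8 (0.00118; lowest in fiber tracts, -0.73) and Syt6 (0.00239; highest in hippocampus, 1.62). For aged sections they were Syp (4.98e-09; lowest in fiber tracts, -0.89), Sv2b (9.78e-09; lowest in fiber tracts, -1.34), Syt13 (1.74e-08; lowest in striatum, -0.71) and Stx1a (2.39e-08; lowest in fiber tracts, -0.95, highest in cortex, 0.39).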

How the results depend on the processing

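Across the alternatives, 4752 single log2 fold changes kept direction and side of the threshold, 103 lost and 63 gained a call, and 6 reversed, all in aged fiber tracts: with core spots Cplx3 (-0.31) and Syt1 (-0.62), with the cluster led by C4b alone Cplx3 (-0.035), and with the cluster led by Thbs4 alone Rab3b (0.18), Syt13 (0.076) and Syt2 (-0.31). Of the counts of called members, 156 stayed within 1.5 times, 13 were lower and 15 higher. The aged fiber tract count (26) was 7 with the cluster led by Thbs4 alone and stayed between 22 and 29 in the other alternatives. With core spots the P21 counts were 2 in cortex (0 in the main fit), 0 in hypothalamus (3), 1 in fiber tracts (4) and 3 for zone-by-age differences (10), the aged hypothalamic count was 5 (10), and the fiber tract ratio of Cplx3 was 0.25. With filterByExpr alone the P21 cortex had 1 and aged whole sections 6 (3). With thinning the P21 hypothalamus had 1, the P21 zone-by-age count was 6 and the aged cortex had 5 (3). Without the fiber tracts the P21 zone-by-age count was 6; the 25 aged ones were all among the 36. Leaving out each section in turn gave 0 to 3 in P21 cortex, 5 to 10 in P21 thalamus, 0 to 5 in P21 hypothalamus, 1 to 21 for P21 zone-by-age differences, 3 to 8 in aged cortex, 3 to 8 in aged hippocampus, 5 to 10 in aged thalamus and 3 to 5 in aged whole sections. The P21 hypothalamic count was 0 without P21 section 1, P21 section 2 or adult section 1, and 5 without adult section 2. Except for the single fiber tract clusters, shares of all genes under the alternatives are not given here. The cause of these shifts was not tested. Deviations of same-numbered sections from their age means had r from -0.46 to 0.17 over zones and pairs of ages. Adult and aged sections of the same number deviated in opposite directions in hypothalamus (r = -0.46) and thalamus (-0.35). The number was therefore not used as a pair in the main fit. With the replicate block the P21 hypothalamus had 1 called member, P21 thalamus 9 and aged fiber tracts 25. With 2 sections an age, and age and slide version changing together in the aged comparison, small differences cannot be resolved.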
